A study of Mus musculus with 88 samples.

Results

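Proteins made and proteins lost early after lipopolysaccharide were followed here in mouse dendritic cells, by comparing stimulated with mock-stimulated cells at 2 and 3 h. Members were chosen from the labels alone: the samples of LPS and mock cells at 2 h and at 3 h, replicates 1 and 2, which are 16 of the 88 samples of the series. Each mass spectrometry run carries 2 of these samples, the medium and the heavy channel, so the comparison rests on 4 LPS runs against 4 mock runs. All cells were primary dendritic cells of female C57BL/6J mice, grown out of bone marrow with GM-CSF, with no genetic change named in the labels. They had been grown in medium-heavy (M) amino acids, were pooled, and were moved into heavy (H) amino acids just before stimulation. LPS cells received 100 ng/ml of rough, ultrapure LPS of E. coli K12, and mock cells received the same medium change without stimulus. Cells grown in light (L) amino acids in parallel gave the common denominator, and unstimulated cells at 0 h were measured the same way. Proteins were digested with trypsin. The labels do not say whether the replicates came from separate mice or cultures, and a p-value therefore reflects only how far these samples differ, a spread that may be technical.

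LPS, the outer-membrane lipid of Gram-negative bacteria, is handed by CD14 to Toll-like receptor 4, which switches on NF-kB, the AP-1 transcription factors and the MAP kinases. Immediate-early transcription factors and mRNA-decay factors come first, cytokines and chemokines follow, and interferon-induced proteins come later, after a secreted interferon wave. Toll-like receptor signalling also activates Adam17, a membrane protease that works with its partner iRhom2 and clips receptors such as the CSF-1 receptor from the surface. In pulsed SILAC, H protein is what was made after the medium change and M protein is what was already there.

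M/L is therefore called pre-existing protein and H/L newly made protein. Both are linear ratios to the light cells, divided by a factor for each run so that the summed M/L and H/L have the same median in all runs (scaled values). Differences are given as log2 of LPS minus mock, with the standard error, and a protein is called when limma's Benjamini-Hochberg adjusted p over all proteins tested was under 0.05. The 8 runs held 3783 to 4085 proteins with an M/L and 3610 to 3861 with an H/L, with a median of 8 to 9 peptide pairs behind an H/L. H signal was present before any heavy label could be used: the median H share, H/L over M/L plus H/L, was 13.1 to 14.5% at 0 h and 13.997 to 15.7% at 2 and 3 h. Levels of H/L are therefore read against the 0 h runs. Replicates of 1 group differed by a median of 0.46 to 0.49 on the log2 scale in H/L at 2 and 3 h, and by 0.11 to 0.12 in M/L. Of the dendritic cell markers, 9 of 18 had signal, among them Itgax, H2-Aa, H2-Ab1 and Cd74, while Flt3, Zbtb46, Batf3, Ccr7 and Irf8 had none. They made up 0.0488 to 0.106% of the summed iBAQ intensity (intensity per expected peptide) in LPS runs and 0.0565 to 0.0795% in mock runs. Macrophage markers (12 of 15 with signal; Mertk and C1qa were among those with none) made up 0.635 to 1.14% in LPS runs and 0.854 to 1.23% in mock runs. Granulocyte markers (19 of 19 with signal) made up 3.58 to 4.69% in LPS runs and 4.28 to 5.69% in mock runs. Of erythroid and platelet markers 3 of 14 had signal, and of lymphocyte and NK markers 2 of 20.

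Newly made protein differed for few proteins, and mostly upwards. Of 3320 proteins tested over 2 and 3 h together, 22 were called (0.663%), 16 higher (0.482%) and 6 lower (0.181%) after LPS. LPS and mock runs did not overlap for 15 of the 16 and for 5 of the 6. These proteins were called on the same runs, so the separation adds no support, and its share among all 3320 is not given here. At an unadjusted p under 0.05 there were 190. The calls lean on the spread of all 42 runs of the time course: with the spread taken from the runs of 0 to 3 h, 2 were called, Il1b and Sqstm1, and with the 8 runs alone none, with 150 at an unadjusted p under 0.05. In H/L, replicates differed by a median of 0.46 to 0.49 at 2 and 3 h. At 24 h they differed by only 0.19 (LPS) and 0.25 (mock). The standard errors given with the calls use the pooled spread, which can be smaller than the spread at 2 and 3 h. In the ratios as the submitters normalised them, the median protein itself stood 0.48 higher (log2) after LPS, and 463 were called, 446 higher and 17 lower. Summed intensities gave 16, 15 higher and 1 lower, 10 of them among the 22. With the 0 h mean subtracted from H/L, 1079 proteins could be tested and 23 were called, 16 higher and 7 lower. Of those 23, 9 were among the 22, while Cd14, Clec4d and Lpl lost their calls. Leaving replicate 1 out of the groups compared gave 7 calls, 5 of them among the 22, and leaving replicate 2 out gave 8, 6 of them among the 22. With single runs left out, 12 of the 22 stayed called each time, namely Il1b, AI607873, Junb, Tnfaip2, Sqstm1, Srxn1, Clec4d, Arf4, Rps29, Plaur, Csf1r and Pla2g7. Of these, Junb, Sqstm1, Srxn1, Csf1r and Pla2g7 lost their calls with summed intensities.

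Il1b, the precursor of the fever-inducing cytokine interleukin-1 beta, rose the most. Its scaled H/L was 0.422 and 0.453 in the LPS runs at 2 h and 1.02 and 0.995 at 3 h, against 0.0151 and 0.0178 in mock at 2 h and 0.128 and 0.0397 at 3 h. Every LPS run stood above every mock run, and above the 0 h runs at 0.101 and 0.0494. The mock runs, except replicate 1 at 3 h, lay below both 0 h runs. The difference was 4.28 ± 0.32 (SE; 4 LPS and 4 mock runs), or 19.4-fold, with a limma adjusted p of 8.23e-09. That fold is taken against mock values mostly under the 0 h background, and the rise over 0 h, given below, was smaller. The 8 cytokines, chemokines and growth factors tested had a median difference of -0.0031, that of all proteins was -0.0016, and Il1b alone was called. Il1a, the other interleukin-1, stood at 1.36 ± 0.37 over both times with a limma adjusted p of 0.10, which became 0.035 with the replicate number as a block. Its scaled H/L was 0.350 and 0.284 (LPS, 2 h), 0.889 and 0.698 (LPS, 3 h), 0.315 and 0.227 (mock, 2 h) and 0.280 and 0.0710 (mock, 3 h), so the groups overlapped at 2 h and parted at 3 h.

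Junb and Cebpb were the transcription factors called, of 5 immediate-early and stress factors tested (43 listed). Junb, a subunit of AP-1, had scaled H/L of 1.12 and 0.824 (LPS, 2 h) and 1.36 and 0.942 (LPS, 3 h), against 0.377 and 0.335 (mock, 2 h) and 0.467 and 0.379 (mock, 3 h). The lowest LPS run lay well above the highest mock run, and mock itself lay above the 0 h runs at 0.286 and 0.135. Junb rose by 1.43 ± 0.22 (limma adjusted p = 0.000422). Cebpb, the C/EBP factor of acute-phase and macrophage genes, read 0.284, 0.237, 0.424 and 0.402 in LPS at 2 and then 3 h, and 0.145, 0.136, 0.219 and 0.175 in mock. Its groups parted by a narrow gap, and the rise of 0.98 ± 0.23 (limma adjusted p = 0.0437) lost its call whichever single run was left out (adjusted p up to 0.22). Irf4 stood at 1.84 ± 0.52, without a call (limma adjusted p = 0.26).

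**Figure D1:**
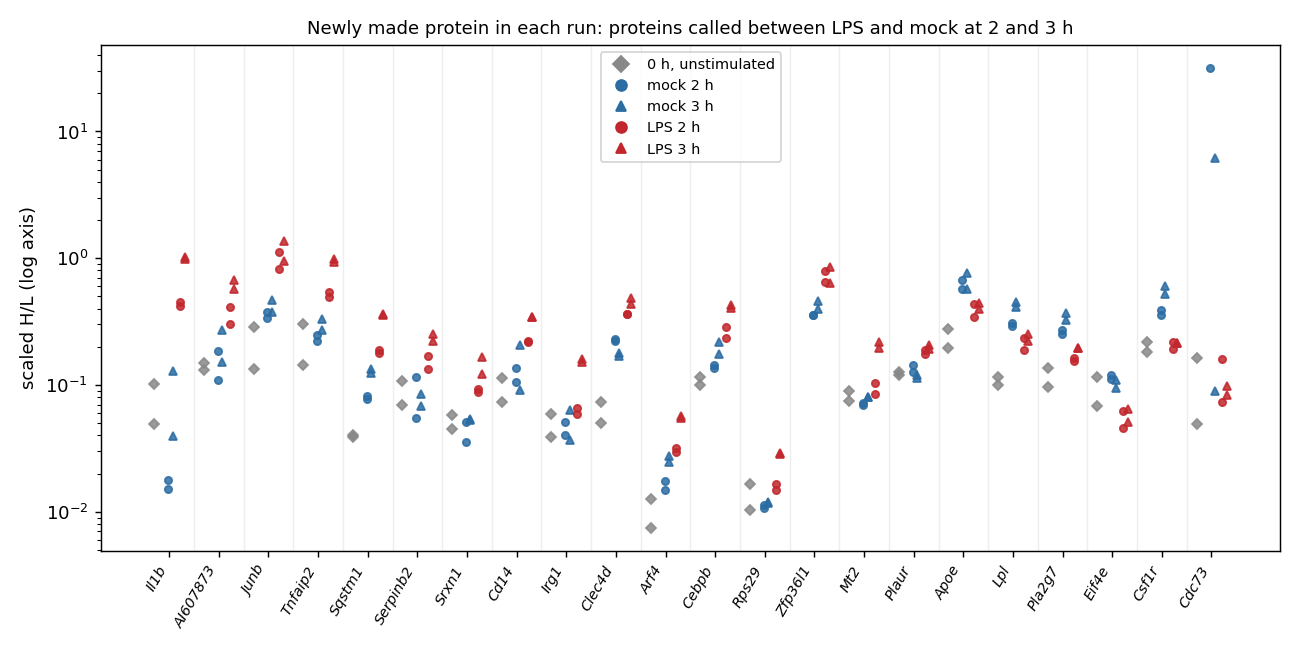
Scaled H/L (log axis) of the 22 proteins called between LPS and mock in newly made protein, 1 point per run: grey, 0 h; blue, mock; red, LPS; circles, 2 h; triangles, 3 h. Il1b shows the widest gap, Irg1 and Cdc73 are the 2 proteins whose LPS and mock points overlap, and the 2 high Cdc73 points are mock runs of replicate 1.

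Of NF-kB subunits, targets and feedback proteins, 2 of 13 tested rose and none fell (median 0.06). Tnfaip2, a TNF-induced protein of membrane nanotubes, read 0.542 and 0.498 (LPS, 2 h), 0.939 and 0.977 (LPS, 3 h), 0.247 and 0.221 (mock, 2 h) and 0.330 and 0.272 (mock, 3 h). LPS runs at 3 h were the highest, and no mock run reached any LPS run. Tnfaip2 rose by 1.41 ± 0.21 (limma adjusted p = 0.000422). Zfp36l1, which binds AU-rich mRNAs and speeds their decay, stood at 0.787, 0.646, 0.635 and 0.857 in LPS and at 0.356, 0.359, 0.457 and 0.400 in mock, again without overlap, a rise of 0.89 ± 0.17. Its limma adjusted p of 0.0437 became 0.16 with the replicate number as a block, and the call held in 1 of 8 omissions of a single run (adjusted p up to 0.18). Relb, an NF-kB subunit, stood at 0.62 ± 0.28 (limma adjusted p = 0.82).

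Of 24 tested members of LPS recognition and Toll-like receptor signalling, Cd14, the co-receptor that carries LPS to Toll-like receptor 4, alone was called (median 0.12). Its scaled H/L was 0.220 and 0.217 (LPS, 2 h) and 0.341 and 0.346 (LPS, 3 h), against 0.137 and 0.106 (mock, 2 h) and 0.208 and 0.0906 (mock, 3 h). Replicate 1 of mock at 3 h came closest to the LPS runs. Cd14 rose by 1.09 ± 0.23 (limma adjusted p = 0.0173), and the call was lost in 6 of 8 omissions of a single run (0.79 to 1.39 on the log2 scale, adjusted p up to 0.20): either LPS run at 2 h or at 3 h, and mock replicate 2 at either time. Plaur, the urokinase receptor, read 0.187, 0.175, 0.207 and 0.192 in LPS against 0.143, 0.128, 0.113 and 0.121 in mock. Its 2 groups did not touch, although the rise was small, 0.60 ± 0.11 (limma adjusted p = 0.00447). Clec4d, a C-type lectin receptor for mycobacterial glycolipid, was 1 of 23 phagocytic and scavenger receptors tested to rise, by 1.05 ± 0.17 (limma adjusted p = 0.00196). It rested on 2 to 3 peptide pairs a run, with 0.363, 0.362, 0.433 and 0.489 in LPS and 0.221, 0.229, 0.169 and 0.178 in mock.

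Of 38 inflammatory and antioxidant enzymes and stress proteins tested, 4 rose and none fell (median -0.02). Sqstm1, the autophagy receptor p62, was the most precisely measured, on 24 to 45 peptide pairs a run. Its scaled H/L was 0.177 and 0.189 (LPS, 2 h), 0.366 and 0.354 (LPS, 3 h), 0.0778 and 0.0825 (mock, 2 h) and 0.134 and 0.124 (mock, 3 h). At each time LPS exceeded mock in both replicates, and mock exceeded the 0 h runs at 0.0389 and 0.0406. The rise was 1.34 ± 0.11, or 2.53-fold (limma adjusted p = 1.84e-08). Srxn1, sulfiredoxin, which repairs oxidised peroxiredoxins, read 0.0924, 0.0882, 0.165 and 0.123 in LPS and 0.0353, 0.0511, 0.0533 and 0.0535 in mock, so that mock stayed at the 0 h level (0.0579 and 0.0446) and LPS did not. Srxn1 rose by 1.25 ± 0.23 (limma adjusted p = 0.00474).

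Serpinb2, plasminogen activator inhibitor 2, read 0.168, 0.134, 0.252 and 0.223 in LPS and 0.115, 0.0550, 0.0843 and 0.0684 in mock. The gap at 2 h was narrow, and the rise of 1.28 ± 0.27 (limma adjusted p = 0.0140) was lost without LPS replicate 1 or mock replicate 2 at either time (adjusted p up to 0.13). Irg1, the enzyme that makes itaconate, read 0.0594 and 0.0657 in LPS at 2 h, close to mock (0.0513 and 0.0402) and to 0 h (0.0588 and 0.0389), but 0.151 and 0.162 at 3 h against 0.0631 and 0.0368. The groups overlapped only across times, LPS at 2 h (0.0594) lying below mock replicate 1 at 3 h (0.0631). Over both times Irg1 rose by 1.08 ± 0.20 (limma adjusted p = 0.00457; 0.052 without mock replicate 2 at 3 h). Mt2, a metal-binding metallothionein outside the lists, read 0.0851, 0.104, 0.194 and 0.220 in LPS and 0.0724, 0.0697, 0.0804 and 0.0804 in mock, and rose by 0.88 ± 0.17 (limma adjusted p = 0.00796; up to 0.058 without replicate 2 of LPS at 2 h or at 3 h). Its 3 h LPS runs stood clear of all others, while the 2 h LPS runs lay near the 0 h runs at 0.0888 and 0.0751. Ptx3, a secreted pentraxin, stood at 2.10 ± 0.66 without a call (limma adjusted p = 0.31).

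Of interferon-induced proteins, 1 of 49 tested was called (63 listed), and the list median was -0.07. That member, AI607873 (current symbol Ifi207), belongs to the Ifi200 family of DNA-binding proteins. It read 0.301 and 0.411 (LPS, 2 h) and 0.571 and 0.672 (LPS, 3 h), against 0.109 and 0.184 (mock, 2 h) and 0.153 and 0.274 (mock, 3 h). The groups did not overlap, though the highest mock run nearly reached the lowest LPS run, and AI607873 rose by 1.45 ± 0.24 (limma adjusted p = 0.00115). Slfn2, a schlafen, stood at 1.28 ± 0.32 without a call (limma adjusted p = 0.082). Gbp2, a guanylate-binding GTPase, stood at -0.67 ± 0.22 (limma adjusted p = 0.33).

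Arf4, a small GTPase of the Golgi, and Rps29, a protein of the small ribosomal subunit, also rose, at low H/L. Arf4 read 0.0316, 0.0294, 0.0550 and 0.0574 in LPS and 0.0174, 0.0148, 0.0249 and 0.0275 in mock, on 3 to 5 peptide pairs, a rise of 1.01 ± 0.19 (limma adjusted p = 0.00447). Rps29 read 0.0164, 0.0149, 0.0291 and 0.0284 in LPS and 0.0112, 0.0107, 0.0118 and 0.0119 in mock, a rise of 0.90 ± 0.14 (limma adjusted p = 0.000422). For Rps29 the LPS runs at 2 h were within the range of the 0 h runs (0.0167 and 0.0104), so only 3 h stood above them.

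Newly made protein that was lower after LPS included the CSF-1 receptor and 3 secreted proteins of lipid handling. Csf1r, the receptor through which CSF-1 keeps macrophages alive, read 0.217 and 0.193 (LPS, 2 h) and 0.215 and 0.213 (LPS, 3 h), against 0.390 and 0.358 (mock, 2 h) and 0.606 and 0.520 (mock, 3 h). LPS runs stayed at the 0 h level (0.181 and 0.218), while mock runs had moved above it. The difference was -1.13 ± 0.16, that is 2.19-fold lower (limma adjusted p = 0.000307). Csf1r was 1 of 3 CSF and related cytokine receptors tested, and with Plaur, which rose, 1 of 2 calls among 14 sheddases and shed surface proteins. Of 10 macrophage markers tested, Csf1r and Apoe fell and Cd14 rose (median -0.15). Of 26 proteins of lipid uptake, storage and export, 3 were lower and none higher (median 0.03). Pla2g7, which inactivates platelet-activating factor, read 0.162, 0.155, 0.196 and 0.197 in LPS and 0.253, 0.271, 0.323 and 0.372 in mock, a difference of -0.77 ± 0.11 (limma adjusted p = 0.000307). Lpl, lipoprotein lipase, read 0.235, 0.188, 0.253 and 0.221 against 0.308, 0.290, 0.415 and 0.452. Apoe, the apolipoprotein that macrophages secrete, read 0.434, 0.347, 0.441 and 0.396 against 0.676, 0.576, 0.770 and 0.572.

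For Lpl and Apoe the 2 groups did not overlap, and both groups lay above the 0 h runs (0.115 and 0.10 for Lpl, 0.276 and 0.197 for Apoe). Lpl differed by -0.69 ± 0.14 (limma adjusted p = 0.00796, and 0.051 with the replicate block; up to 0.061 without replicate 2 of LPS at 2 h, of LPS at 3 h or of mock at 3 h). Apoe differed by -0.68 ± 0.15 (limma adjusted p = 0.0264; up to 0.20 without LPS replicate 2 or mock replicate 1 at either time). In the submitters' normalised ratios, in which the median protein stood 0.48 higher after LPS, Lpl was at 0.40 and Apoe at 0.63, the opposite sign. Eif4e, the mRNA cap-binding protein, was the 1 member called of 31 translation regulators tested, at 0.0456, 0.0622, 0.0511 and 0.0643 in LPS and 0.120, 0.111, 0.110 and 0.0952 in mock. All its LPS runs lay below the 0 h runs (0.0684 and 0.116), and the difference of -0.98 ± 0.23 (limma adjusted p = 0.0441) was 0.056 with the replicate block and lost without any single run (adjusted p up to 0.26). Cdc73, a subunit of the PAF1 transcription elongation complex, had the most negative difference, -5.62 ± 1.09 (limma adjusted p = 0.00782). It rested on replicate 1 of mock, with 31.9 at 2 h and 6.16 at 3 h. Mock replicate 2 had 0.0894 at 3 h and no value at 2 h, the 4 LPS runs had 0.0732 to 0.160, and without mock replicate 1 at 2 h it could not be tested.

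Many fixed lists held no call in newly made protein: dendritic cell maturation (0 of 5 tested), the MHC class II pathway (0 of 7), the MHC class I pathway (0 of 15), membrane-actin linkers and cytoskeletal regulators (0 of 43), lysosomal hydrolases and cathepsins (0 of 36), heat shock and folding proteins (0 of 25), proteins with short half-lives in other cells (0 of 2), dendritic cell markers (0 of 7), granulocyte markers (0 of 12) and erythroid and platelet markers (0 of 2). No lymphocyte or NK marker could be tested. The list medians ran from -0.13 for the granulocyte markers to 0.20 for the short-lived proteins. Marcksl1, a MARCKS-like actin linker, came nearest to a call among them at 0.92 ± 0.23 (limma adjusted p = 0.059). H2-K1, a class I heavy chain, stood at 0.73 ± 0.23 (limma adjusted p = 0.31) and Cd74, the class II invariant chain, at 0.32 ± 0.13 (limma adjusted p = 0.74).

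**Figure D2:**
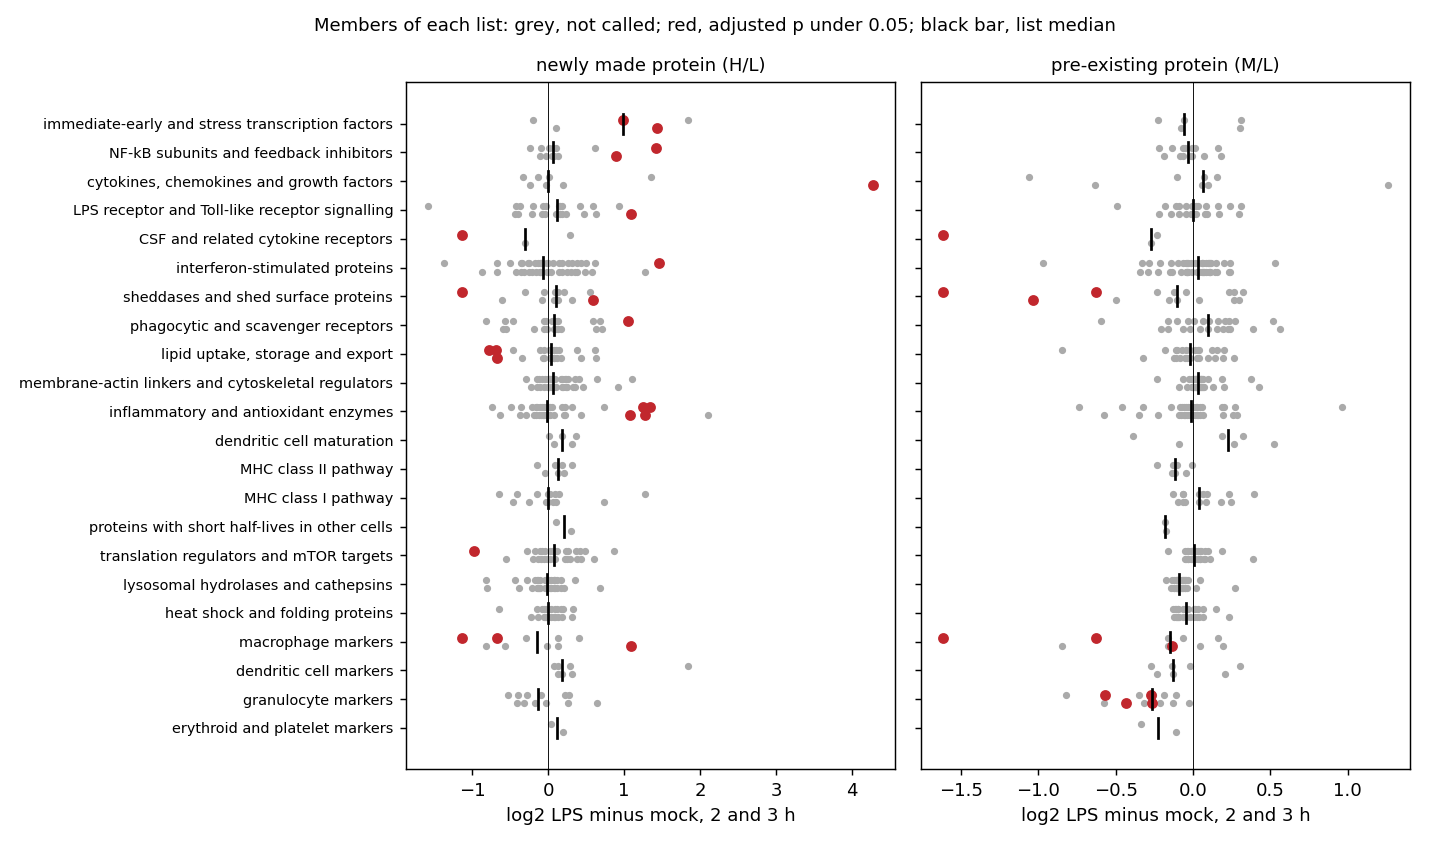
Log2 LPS minus mock over 2 and 3 h for every tested member of each list, left for newly made and right for pre-existing protein: grey, not called; red, limma adjusted p under 0.05; black bar, the list's median. Newly made calls sit mostly to the right of 0 and pre-existing calls to the left of it, and the granulocyte list has a median of -0.27 in pre-existing protein.

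Some proteins could not be tested because one arm had hardly any value. Of the 5899 protein groups left after filtering, 24 had an H/L in all 4 LPS runs and in at most 1 mock run. The reverse held for 12. Cxcl2, a neutrophil-attracting chemokine, read 2.23, 1.83, 4.06 and 2.77 in LPS, with 0.182 in 1 mock run. Zfp36, tristetraprolin, the mRNA-decay factor of TNF transcripts, read 1.58, 1.26, 1.67 and 1.11, with 0.278 in 1 mock run. Maff, a small Maf transcription factor, read 0.898, 0.783, 3.19 and 1.84 with no mock value, and Cdkn1a, the cell-cycle inhibitor p21, 1.08, 1.04, 1.61 and 1.39 with no mock value. Gm6377, a predicted gene with 2 unique peptides, read 3.14, 3.10, 3.78 and 2.75 with no mock value. For these 5 the values in LPS exceeded the 1 mock value, where there was any. Bach1, a repressor of antioxidant genes, read 0.456, 0.633, 1.13 and 0.278, and its 1 mock value of 0.617 lay inside that range.

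In the opposite set, Mmp8, the collagenase of neutrophil granules, read 0.998, 0.952, 1.43 and 0.920 in mock and 0.630 in 1 LPS run. Pdcd4, a translation inhibitor, read 0.310, 0.219, 0.181 and 1.32 in mock and had no H/L in LPS. The deposited ratios rest on at least 2 peptide pairs, so a missing ratio does not say that the protein was absent, and no test was made of these sets. Most rest on few peptides: the 24 had 8 to 16 pairs summed over the 4 LPS runs.

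Promoters were searched because AP-1 and NF-kB sites are where the pathway's transcription factors bind. Those of Srxn1, Plaur, Serpinb2 and Cxcl2 are shown. All of these hold a match, and no promoter without a match is shown. Cxcl2 was seen almost only in LPS runs and could not be tested. RefSeq's table (GRCm38.p6) held a promoter for 14 of the 16 proteins with more newly made protein after LPS. The 250 bases before each start were searched on both strands for TGANTCA and for the NF-kB consensus. TGANTCA, in which N is any base, is a loose form of the AP-1 element. The 2 motifs did not overlap in the promoters shown. TGANTCA was found for 5 of 14 (35.7%), namely Srxn1, Plaur, Serpinb2, Mt2 and Zfp36l1, where 7.82% of all 27025 genes of the table hold it. The NF-kB consensus was found for 2 of 14 (14.3%; Sqstm1 and Tnfaip2) against 8.23% of all genes. Of the 24 proteins seen almost only in LPS runs, 20 had a promoter in the table, of which Cxcl2 and Maff held the NF-kB consensus and none held TGANTCA. The sequences below run 5′ to 3′ on the coding strand and end at the base before the start site, with capitals marking the matched element, TGANTCA in the first 3 and NF-kB in the fourth.
Srxn1 (chr2:152105274-152105523, plus strand): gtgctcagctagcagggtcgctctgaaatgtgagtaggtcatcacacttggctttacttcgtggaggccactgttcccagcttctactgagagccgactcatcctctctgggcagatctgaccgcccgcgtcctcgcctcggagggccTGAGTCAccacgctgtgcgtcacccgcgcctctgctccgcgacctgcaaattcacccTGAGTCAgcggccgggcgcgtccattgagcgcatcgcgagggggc
Plaur (chr7:24462233-24462482, plus strand): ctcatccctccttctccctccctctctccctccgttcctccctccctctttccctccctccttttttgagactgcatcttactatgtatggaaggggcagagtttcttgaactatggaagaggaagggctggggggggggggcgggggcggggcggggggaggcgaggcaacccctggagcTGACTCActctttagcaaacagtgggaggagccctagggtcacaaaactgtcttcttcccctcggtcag
Serpinb2 (chr1:107511173-107511422, plus strand): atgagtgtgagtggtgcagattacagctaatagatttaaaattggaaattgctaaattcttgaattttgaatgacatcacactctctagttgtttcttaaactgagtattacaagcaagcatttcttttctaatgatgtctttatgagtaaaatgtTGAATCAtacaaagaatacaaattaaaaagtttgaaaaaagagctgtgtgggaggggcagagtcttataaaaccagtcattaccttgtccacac
Cxcl2 (chr5:90903649-90903898, plus strand): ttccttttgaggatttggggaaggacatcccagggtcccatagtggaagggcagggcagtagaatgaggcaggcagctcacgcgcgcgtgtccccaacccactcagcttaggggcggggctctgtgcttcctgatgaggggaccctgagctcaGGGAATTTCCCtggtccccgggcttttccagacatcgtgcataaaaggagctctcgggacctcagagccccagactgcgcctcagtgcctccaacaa
Srxn1 holds 2 TGANTCA matches, Plaur and Serpinb2 1 each (for Serpinb2, the one of its 2 listed starts with more matches is shown), and the capitals of Cxcl2 are 2 overlapping NF-kB matches. The match of Serpinb2 reads TGAATCA, with A at the open position. A match describes these letters only.

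Pre-existing protein gave the first losses. Of 3539 proteins tested over 2 and 3 h, 12 were called, all lower after LPS (0.339%), and none was higher. For 11 of the 12 the LPS runs did not overlap the mock runs, Cfp being the exception. The 12 were called on the same runs, so this adds no support, and the share among all 3539 is not given here. At an unadjusted p under 0.05 there were 270. Fewer cells with a protein and less of it per cell cannot be told apart in these lysates. Calls numbered 14 with the spread of the runs of 0 to 3 h, 4 with the 8 runs alone and 19 (3 higher, 16 lower) in the submitters' normalised ratios. Leaving out replicate 1 gave 7 calls, 2 of them higher and 4 among the 12, and leaving out replicate 2 gave 9, 1 of them higher and 7 among the 12. With single runs left out, 8 of the 12 stayed called each time: Csf1r, Hmgn1, Rhbdf2, Rtn4, Axl, Ltf, Ngp and S100a9. Summed intensities gave 3 calls, 2 of them among the 12, Rhbdf2 and Rtn4. With no run factor Csf1r alone was called.

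Csf1r, Rhbdf2 and Axl, of the sheddase and shed-protein list, were among the losses: of 15 sheddases and shed surface proteins tested, 3 fell and none rose (median -0.10). Scaled M/L of Csf1r was 0.110 and 0.125 in LPS at 2 h and 0.497 and 0.378 at 3 h, against 0.894 and 0.681 in mock at 2 h and 0.656 and 0.569 at 3 h, and 1.37 and 1.46 at 0 h. LPS was lower in every run, far more at 2 h than at 3 h, and mock itself stood below 0 h. Over both times Csf1r fell by -1.61 ± 0.23 (limma adjusted p = 0.000198). At 2 h alone the difference was -2.73 ± 0.32 (limma adjusted p = 2.30e-05) and at 3 h -0.49 ± 0.32 (limma adjusted p = 1.0). The 3 h effect minus the 2 h effect was 2.24 ± 0.45, with a limma adjusted p of 0.16, and 0.030 with the spread of the runs of 0 to 3 h.

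Rhbdf2, iRhom2, the partner that carries Adam17 to the surface, read 0.410 and 0.426 (LPS, 2 h) and 0.316 and 0.378 (LPS, 3 h), against 0.892 and 0.784 (mock, 2 h) and 0.717 and 0.738 (mock, 3 h). Mock runs lay near the 0 h runs (0.724 and 0.761) and LPS runs stood well below it. Rhbdf2 fell by -1.04 ± 0.11 (limma adjusted p = 8.11e-06), on 3 to 10 peptide pairs a run. Axl, a receptor for dying cells that is itself shed, read 0.312, 0.374, 0.267 and 0.290 in LPS and 0.504, 0.469, 0.486 and 0.445 in mock, and fell by -0.63 ± 0.11 (limma adjusted p = 0.00253). Adam17 stood at -0.50 ± 0.22 without a call (limma adjusted p = 0.62).

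Hmgn1, a nucleosome-binding protein that is also released as an alarmin, fell with the second largest difference among the calls. It read 0.435 and 0.626 (LPS, 2 h) and 0.669 and 0.663 (LPS, 3 h), against 1.46 and 1.26 (mock, 2 h) and 1.23 and 1.34 (mock, 3 h). Mock lay at or above the 0 h runs (1.05 and 1.23) and every LPS run lay below them. The difference was -1.16 ± 0.09 (limma adjusted p = 1.82e-08), from 2 unique peptides. Rtn4, a reticulon that shapes the endoplasmic reticulum, read 0.326, 0.355, 0.394 and 0.374 in LPS and 0.584, 0.552, 0.570 and 0.564 in mock. Mock equalled 0 h (0.553 and 0.574) to within its spread, LPS did not reach it, and Rtn4 fell by -0.65 ± 0.08 (limma adjusted p = 1.89e-05).

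**Figure D3:**
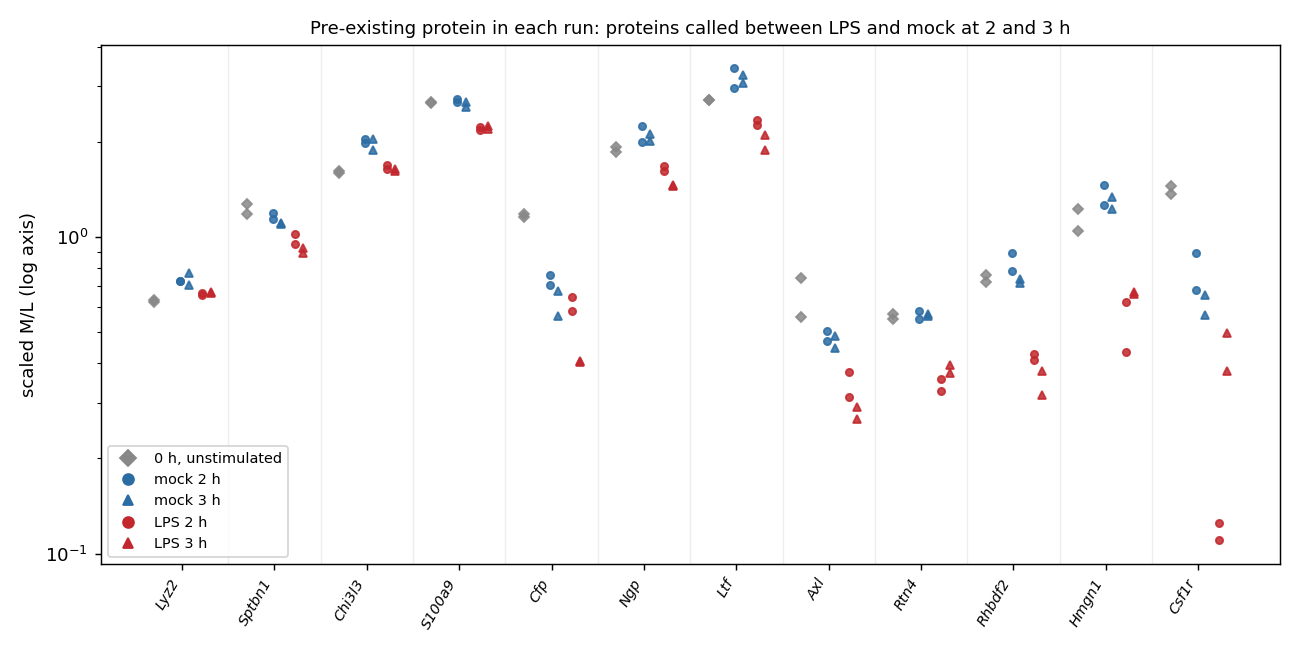
Scaled M/L (log axis) of the 12 proteins called between LPS and mock in pre-existing protein, 1 point per run: grey, 0 h; blue, mock; red, LPS; circles, 2 h; triangles, 3 h. All red points lie below the blue ones except for Cfp, and the 2 lowest Csf1r points are the LPS runs at 2 h.

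The granulocyte markers called fell by less but with narrow errors. Of 14 granulocyte markers tested, 4 fell and none rose, and the median was -0.27 where that of all proteins was 0.01. Ltf, lactoferrin, read 2.34, 2.26, 2.10 and 1.88 in LPS and 3.42, 2.97, 3.08 and 3.26 in mock, and fell by -0.57 ± 0.07 (limma adjusted p = 7.44e-05). Ngp, neutrophilic granule protein, read 1.68, 1.62, 1.46 and 1.45 against 2.24, 2.00, 2.12 and 2.01, and fell by -0.43 ± 0.06 (limma adjusted p = 0.000198). For both, LPS at 3 h was the lowest of the 4 sets of runs. S100a9, a subunit of calprotectin, fell by -0.27 ± 0.05 (limma adjusted p = 0.00253) and Chi3l3, the chitinase-like Ym1, by -0.27 ± 0.06 (limma adjusted p = 0.0296, which held in 1 of 8 omissions of a single run, that of mock replicate 1 at 3 h; up to 0.25 otherwise). Lcn2, the siderophore-binding lipocalin, and Hp, haptoglobin, stood at -0.57 ± 0.17 and -0.82 ± 0.22 without calls (limma adjusted p = 0.30 and 0.21). These proteins are themselves part of the granulocyte share of 3.58 to 4.69% in LPS runs and 4.28 to 5.69% in mock runs given above, and the part of granulocyte number in the result was not tested.

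Of 10 macrophage markers tested, 3 fell (Csf1r, Axl and Lyz2) and none rose (median -0.15). Lyz2, lysozyme, read 0.668, 0.657, 0.669 and 0.664 in LPS and 0.725, 0.724, 0.708 and 0.768 in mock. That difference of -0.14 ± 0.03 had a limma adjusted p of 0.0489, which was 0.098 with the replicate block and held in 1 of 8 omissions of a run (up to 0.45). Cfp, properdin, which stabilises the complement convertase, read 0.647, 0.584, 0.407 and 0.404 in LPS and 0.708, 0.760, 0.676 and 0.565 in mock. Its loss of -0.43 ± 0.09 (limma adjusted p = 0.0347) held in 2 of 8 omissions (up to 0.22), and its LPS runs at 2 h overlapped mock at 3 h. Sptbn1, a spectrin, fell by -0.26 ± 0.06 (limma adjusted p = 0.0315; up to 0.16, and called in 1 of 8 omissions). No member was called among the 36 lysosomal hydrolases tested (median -0.09), 26 heat shock and folding proteins (-0.05), 49 interferon-induced proteins (0.03), 44 membrane-actin linkers (0.03), 26 lipid-handling proteins (-0.02) or 24 phagocytic receptors (0.10). Of 3 CSF and related cytokine receptors tested, Csf1r alone was called (median -0.27). No member was called in the remaining lists, whose medians ran from -0.23 for 2 erythroid and platelet markers to 0.23 for 6 maturation proteins. The nearest to a rise were Serpinb2, at 0.18 ± 0.04 (limma adjusted p = 0.094), and Il1b, at 1.26 ± 0.36 (limma adjusted p = 0.25). Rps6, of the small ribosomal subunit, stood at 0.39 ± 0.11 (limma adjusted p = 0.27, and 0.020 with the replicate block).

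Among the 3320 proteins tested in both, Csf1r alone was called in newly made and in pre-existing protein. None of the remaining newly made calls was called in pre-existing protein, where Il1b stood at 1.26 ± 0.36, Apoe at -0.85 ± 0.34 and Junb at 0.31 ± 0.36, against 0.01 ± 0.09 for Tnfaip2, 0.03 ± 0.04 for Srxn1, 0.06 ± 0.07 for Irg1 and -0.18 ± 0.08 for Pla2g7. Of the losses, Axl stood at 0.14 ± 0.36, Hmgn1 at -0.65 ± 0.57, Rhbdf2 at -0.61 ± 0.53 and Rtn4 at -0.89 ± 0.46 in newly made protein, with limma adjusted p of 0.88 or more.

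**Figure D4:**
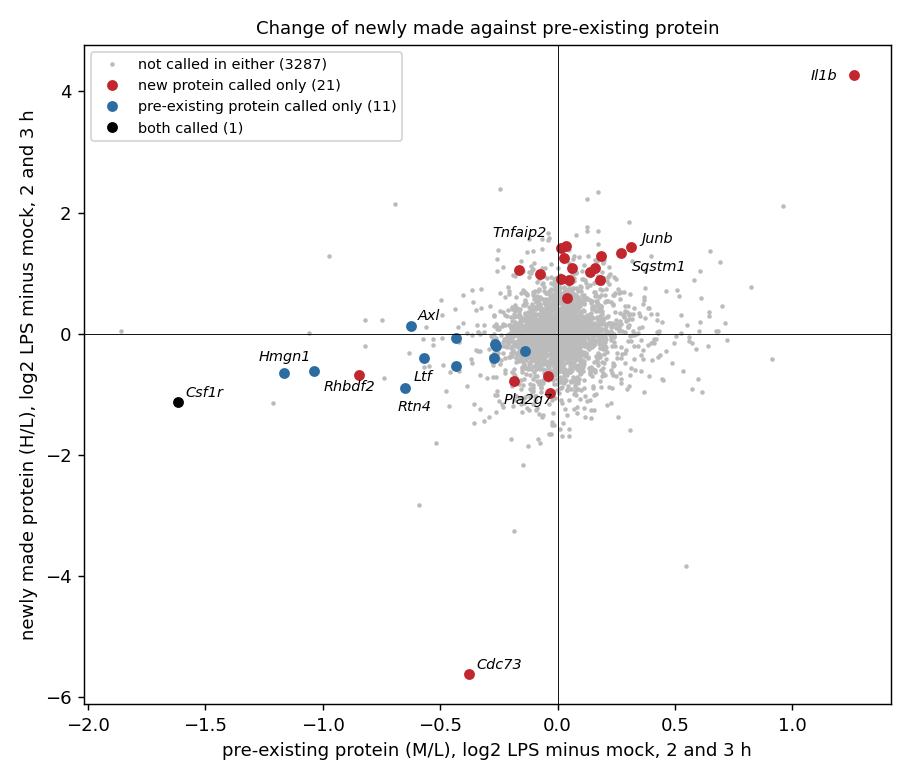
Log2 LPS minus mock over 2 and 3 h of newly made protein (vertical) against pre-existing protein (horizontal) for the 3320 proteins tested in both. Red points (21) were called in newly made protein only, blue points (11) in pre-existing protein only, and the black point, Csf1r, in both.

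Total protein, M/L plus H/L, showed which of these changes altered the amount present. Of 3320 tested, 27 were called (0.813%), 11 higher (0.331%) and 16 lower (0.482%). Il1b rose by 3.01 ± 0.27 (limma adjusted p = 1.84e-07), Junb by 0.96 ± 0.19 (0.00881; up to 0.115 without LPS replicate 1 at either time or mock replicate 2 at 2 h), Sqstm1 by 0.79 ± 0.06 (7.31e-09), Tnfaip2 by 0.75 ± 0.08 (1.52e-06) and Cd14 by 0.52 ± 0.09 (0.00191). Csf1r fell by -1.35 ± 0.13 (limma adjusted p = 5.50e-07), Hmgn1 by -1.11 ± 0.11 (6.49e-07), Rhbdf2 by -0.96 ± 0.13 (0.000126) and Rpl34, of the large ribosomal subunit, by -0.74 ± 0.14 (0.00434, and 0.073 with the replicate block). Cdc73 stood at -3.28 ± 0.41 (limma adjusted p = 2.55e-05), resting on the same 2 mock runs as its H/L. With the 8 runs alone 2 proteins were called, and with no run factor and the replicate block 11, 6 higher and 5 lower.

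H/M compares new with old protein within a run and needs no scaling between runs. Of 3320 tested, 16 were called (0.482%), 13 higher (0.392%) and 3 lower (0.0904%). Il1b read 3.34, 3.83, 5.05 and 5.29 in LPS and 0.484, 0.447, 1.24 and 0.694 in mock, so new exceeded old Il1b several-fold in each LPS run, and it rose by 2.71 ± 0.32 (limma adjusted p = 2.07e-05). Irg1, whose H/L overlapped, parted fully in H/M, with 0.569, 0.595, 1.33 and 1.51 in LPS and 0.394, 0.415, 0.410 and 0.310 in mock, a rise of 1.26 ± 0.14 (limma adjusted p = 2.07e-05). Slfn2, a schlafen that keeps lymphocytes and monocytes quiescent, was called here and not in H/L: 6.13, 7.80, 11.7 and 18.3 in LPS against 2.33, 1.68, 3.51 and 2.50 in mock, a rise of 2.05 ± 0.32 (limma adjusted p = 0.00118). Its pre-existing protein stood at -0.97 ± 0.33 (limma adjusted p = 0.48), and it rested on 2 to 6 peptide pairs.

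Tnfaip2, Srxn1, Cebpb, Sqstm1 and Cd14 rose in H/M as well, by 1.55, 1.20, 1.08, 1.08 and 1.07, with Cebpb at a limma adjusted p of 0.075 with the replicate block. Among omissions of a single run the H/M call was lost in 6 of 8 for Srxn1, 5 of 8 for Cebpb and 4 of 8 for Cd14 (limma adjusted p up to 0.13, 0.22 and 0.14). Gbp2 was lower by -1.08 ± 0.24 (limma adjusted p = 0.0407), with 0.571, 0.367, 0.610 and 0.410 in LPS and 0.772, 1.32, 1.13 and 0.898 in mock, the LPS runs lying around the 0 h runs at 0.650 and 0.556, and its call was lost in 5 of 8 such omissions (up to 0.23). Kif13b, a kinesin, was lower by -0.98 ± 0.22 (limma adjusted p = 0.0407), a call that was lost in every omission of a single run (up to 0.17), and was at 0.075 on the log2 scale in the normalised ratios. With the 8 runs alone no protein was called, with 156 at an unadjusted p under 0.05, and in the normalised ratios 724 were (711 higher, 13 lower), where the median protein stood 0.59 higher after LPS.

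The 2 times were also taken apart. At 2 h, 2 of 3100 proteins were called in newly made protein (0.0645%), Il1b at 4.74 ± 0.46 (limma adjusted p = 9.50e-07) and Sqstm1 at 1.19 ± 0.15 (7.94e-05), and 4 with the replicate block. With the 0 h mean subtracted from H/L, 8 were called at 2 h, 6 higher and 2 lower. At 3 h, 21 of 3059 were called (0.686%), 18 higher (0.588%) and 3 lower (0.0981%). Il1b was at 3.82 ± 0.46 (limma adjusted p = 2.61e-05), Il1a at 2.48 ± 0.52 (0.0192), Irg1 at 1.70 ± 0.28 (0.00204), Tnfaip2 at 1.68 ± 0.30 (0.00427) and Csf1r at -1.39 ± 0.22 (0.00166). Junb, at 1.43 ± 0.30 (limma adjusted p = 0.0217), was at 0.056 with the replicate block.

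More calls at 3 h than at 2 h did not amount to a tested difference: the 3 h effect minus the 2 h effect was called by limma for 0 of 2868 proteins (0.0%), with 93 at an unadjusted p under 0.05. In the normalised ratios 112 were, 6 higher and 106 lower, where the median protein stood at -0.59. Irg1 had 1.24 ± 0.40, Mt2 0.96 ± 0.35, Rps29 0.76 ± 0.27 and Junb -0.01 ± 0.43 in that contrast (limma adjusted p = 1.0 for each). In pre-existing protein, 4 of 3325 were lower at 2 h (0.12%; Csf1r, Hmgn1, Rhbdf2 and Rtn4) and 6 of 3262 at 3 h (0.184%; Rhbdf2, Hmgn1, Axl, Ltf, Rtn4 and Ngp). Rhbdf2 at 2 h, -1.0 ± 0.16 (limma adjusted p = 0.00206), was at 0.055 with the replicate block. The difference between the times was called by limma for 0 of 3079 (0.0%), with 56 at an unadjusted p under 0.05.

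Against the hour before, the LPS effect on newly made protein at 2 and 3 h exceeded that at 0.5 and 1 h for 9 (0.283%) and fell short of it for 2 (0.063%) of 3175 proteins (0.346% together). The effect at 4, 5 and 6 h exceeded that at 2 and 3 h for 22 (0.695%) and fell short for 1 (0.0316%) of 3166 (0.726% together). In the normalised ratios the later effect exceeded that at 2 and 3 h for 11 and fell short for 769, where the median protein stood at -0.89, and the earlier comparison gave 92 and 2 (median 0.46). With no run factor the earlier comparison gave 1 call, higher, with the replicate block besides 4, all higher, and with summed intensities 2, both higher. With the 0 h mean subtracted from H/L the earlier comparison gave 6 higher and 3 lower, and the later 4 and 1. Il1b went from a scaled H/L of 0.0899 ± 0.0050 (SD, n = 2 runs) in LPS at 1 h to 0.437 ± 0.022 and 1.01 ± 0.017 in the window and 2.51 ± 0.0023 at 6 h. Junb was already at 0.447 ± 0.11 at 0.5 h and 0.672 ± 0.0054 at 1 h, against 0.226 ± 0.014 and 0.298 ± 0.025 in mock. Pre-existing Csf1r was already at 0.244 ± 0.059 in LPS at 0.5 h and 0.174 ± 0.041 at 1 h, against 1.29 ± 0.044 and 1.12 ± 0.13 in mock. Its LPS mean stood at 0.438 ± 0.084 by 3 h, 0.498 ± 0.22 an hour later and 0.10 ± 0.036 at 6 h.

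**Figure D5:**
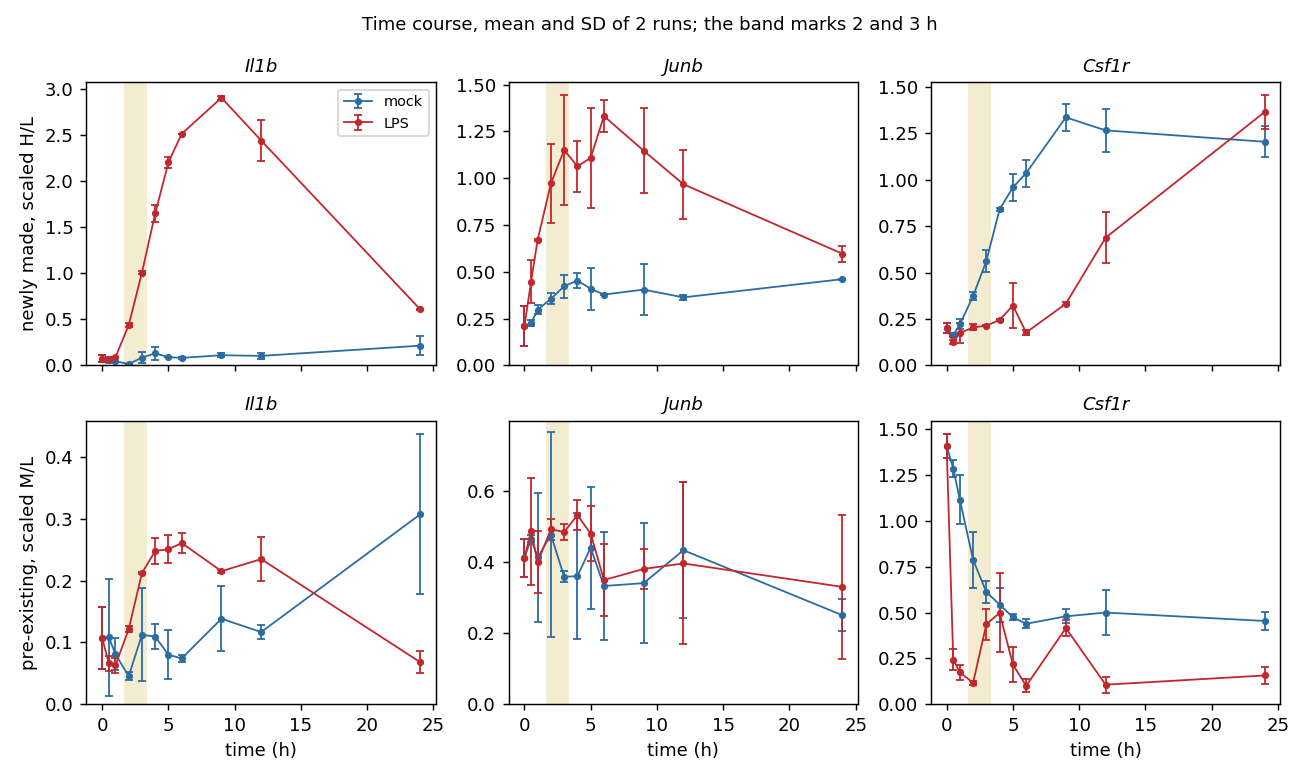
Scaled H/L (top) and scaled M/L (bottom) of Il1b, Junb and Csf1r over time in hours, mean with SD of 2 runs; blue, mock; red, LPS; the band marks 2 and 3 h. New Il1b parts from mock within the band, new Junb before it, and old Csf1r has fallen before it.

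Both arms can also be set against 0 h, and these comparisons share the same 2 unstimulated runs. Mock at 2 and 3 h stood above 0 h in newly made protein for 60 (1.87%) and below it for 9 (0.281%) of 3204 proteins (2.15% together). LPS stood above 0 h for 87 (2.68%) and below it for 13 (0.4%) of 3250 (3.08% together). These counts were 158 for mock and 193 for LPS with the replicate block, and with the runs compared alone 0 for each, with 255 and 287 at an unadjusted p under 0.05. In the normalised ratios 2973 stood higher and 1 lower in mock and 3140 and 1 in LPS (medians 3.31 and 3.79), while with no run factor and the replicate block 45 and 26 did in mock and 73 and 34 in LPS. Properdin (Cfp) stood at 2.80 in mock and 2.73 in LPS, the invariant chain Cd74 at 2.57 and 2.89, and complement C1qb at 2.52 and 2.93. Apart from Cdc73, whose mock value rests on the runs described above, the highest in mock also held Bop1 (2.53), Itm2b (2.30), B2m (2.02) and Cst3 (1.97). In LPS the highest also held Cdkn1a (3.63), Tnip3 (3.30), Il1b (3.23) and Clec4d (2.76). Sqstm1 was at 1.35 in mock and 2.69 in LPS, and Csf1r at 1.21 in mock and 0.08 ± 0.20 in LPS.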

How the data were processed

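The authors deposited 1 table of protein groups with, for each run, linear ratios M/L, H/L and H/M, un-normalised and normalised, the count of peptide pairs behind each ratio, and intensities. These units are read from the file header, the search software was not given in the sources used here; the submitters' processing notes name the build mm9, which was not used for any value. Of 6266 protein groups, 367 were dropped as reverse, contaminant or identified only by a modified site, and 5899 were kept. Of these, 5321 carried a current symbol, 421 were matched through a synonym, 42 were unmatched and 115 had no name; the file's names are printed.

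Each run's deposited un-normalised ratios were scaled by 1 factor, for which the sum of both ratios to light was taken at its median protein among 2628 that had M/L in 42 of 42 runs (-0.68 to 0.69 on the log2 scale), and log2 values were fitted with limma 3.58.1 (R 4.3.3) as 21 group means over 42 runs, with Benjamini-Hochberg adjustment. H/M needed no run factor. A protein was tested with values in at least 3 of 4 runs of each arm (4 of 6 for 4 to 6 h), and missing values were left missing, not imputed. Every deposited ratio used rested on at least 2 peptide pairs. Few pairs and 2 replicates per time limit the precision. The fit was tested on simulated data with known changes, and the outcome is not given here. That test is not used as support for the H/L calls at 2 and 3 h. There replicates differed more in H/L than at the last time of the course, and the fit pools the spread of all runs. The deposited intensities gave the marker shares (iBAQ, M plus H) and 1 alternative. Tables and plots were made with pandas 2.3.3, numpy 2.4.6 and matplotlib 3.10.9 under Python 3.11.15.

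Replicate numbers come from the labels. Deviations of same-numbered LPS and mock runs correlated at 0.25 to 0.46 in H/L and 0.31 to 0.55 in M/L, above 0.1 at 10 of 10 times, so a fit with the replicate number as a block was run as an alternative. The other alternatives were no run factor, the normalised ratios, summed intensities, each channel centred on its own median, the 0 h mean subtracted from H/L, values in all runs, the runs compared alone, a trended and robust prior, and leaving out replicates or single runs. No run factor with the block, and the spread of the runs of 0 to 3 h, were added after seeing the data. Named proteins were the most changed calls in each comparison that moved the same way in every pair, the calls and the smallest unadjusted p-values of each list, the best measured proteins seen in 1 arm only, and Il1b, Junb and Csf1r. Other calls of the main comparisons, and Bach1 and Pdcd4 among proteins seen mostly in 1 arm, were named after their values were seen. The members and lists were chosen with earlier results of these data known.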

Additional observations from a re-analysis of the deposited data

Results flagged for a closer look

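The LPS effect on newly made protein differed between the 2 to 3 h window and the 0.5 to 1 h window before it, by limma's test of the difference itself (adjusted p under 0.05), for Il1b (3.53 on the log2 scale), Mitf, a transcription factor of lysosomal and osteoclast genes (1.65), Cd14 (1.49), Mt2 (1.46), Arf4 (1.25) and Sqstm1 (1.20), whose effects were larger at 2 and 3 h. It was more negative at 2 and 3 h for Pla2g7 (-0.79) and for Cdc73 (-6.84), the latter resting on replicate 1 of mock. With the replicate number as a block the limma adjusted p was 0.060 for Cd14, 0.067 for Arf4, 0.064 for Cdc73 and 0.055 for Pla2g7.

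The effect at 4, 5 and 6 h differed from that at 2 and 3 h by the same test for the interferon-induced GTPases Irgm1 (2.71) and Ifi47 (2.05), the cytokine Il1a (2.22), the adhesion molecule Icam1 (2.04), the DNA-binding Ifi205a (1.90) and the oligoadenylate synthetase-like Oasl1 (1.86), all larger at the later times. For Csf1r it was more negative at the later times (-0.85). With the replicate block the limma adjusted p was 0.058 for Oasl1 and 0.10 for Csf1r. Both windows share the runs at 2 and 3 h.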

How the results depend on the processing

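Counts below are limma calls at an adjusted p under 0.05. In the normalised ratios, in which the median protein moved, calls in newly made protein numbered 463 over both times, 686 at 2 h, 112 for 3 h minus 2 h, 94 and 780 for the earlier and later windows, and 2974 (mock) and 3141 (LPS) against 0 h; calls numbered 724 in H/M, and 19, 9 and 10 in pre-existing protein (both times, 2 h, 3 h). There Lpl (0.40), Apoe (0.63) and Kif13b in H/M (0.075) reversed. With no run factor, newly made calls numbered 3, 1 at 2 h, 1 at 3 h, 1 and 0 for the windows (120 at an unadjusted p under 0.05), and 12 and 23 against 0 h; pre-existing calls 1, 1 and 0 (10 unadjusted); total 2. With no run factor and the replicate block, pre-existing calls numbered 5, 2, 0 (114 unadjusted) and 1 for 3 h minus 2 h, total 11, newly made 6 at 3 h and 4 for the earlier window. With the runs compared alone, newly made calls numbered 0, at 2 h 0 (91 unadjusted), at 3 h 0 (115), for the earlier window 0 (131) and against 0 h 0 and 0; pre-existing calls 4, 0 (105) and 1; total 2; H/M 0. With the spread of the runs of 0 to 3 h, newly made calls numbered 2, 1 at 2 h, 0 at 3 h (117), 0 for the earlier window (120), and 11 and 18 against 0 h; total 14; H/M 3; pre-existing 3 h minus 2 h 1. Summed intensities gave 3, 1 and 0 (135) pre-existing calls and 1 for 3 h minus 2 h, and newly made 1 at 2 h, 11 at 3 h, and 2 and 10 for the windows. Own-median centring gave 45 and 63 against 0 h, a trended prior 8 in H/M, 9 at 3 h and 7 for the earlier window, and subtracting the 0 h mean 8 at 2 h, 1 for 3 h minus 2 h and 5 for the later window. The cause of these shifts was not tested.

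The replicate block gave 4 newly made calls at 2 h, 4 and 39 for the windows, and 158 and 193 against 0 h; over both times it shared 19 of 22 newly made and 11 of 12 pre-existing calls and added 12 and 7. Of the calls with values above, it ended only those marked there, and could not test Itm2b and Cst3 (mock) or Cdkn1a (LPS) against 0 h. It also ended others of proteins named: Plaur (0.12) and Arf4 (0.075) in H/M, Irg1 (0.057) and Clec4d (0.073) in total protein, and Arf4 (0.11), Lpl (0.11) and Marcksl1 (0.17) at 3 h. Leaving out a replicate or a single run gave 7 to 23 newly made calls, 3 to 7 at 2 h, 3 to 6 at 3 h, 0 to 0 for 3 h minus 2 h, 11 to 15 and 1 to 5 for the windows, and 37 to 46 (mock) and 54 to 77 (LPS) against 0 h. It gave 7 to 14 pre-existing calls, 6 to 6 at 2 h, 0 to 4 at 3 h and 1 to 3 for 3 h minus 2 h, 14 to 34 in total protein and 4 to 17 in H/M. The number of peptide pairs and 2 runs per time limit what could be called, most of all in H/L.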

Other observations

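The 36 lysosomal hydrolases and cathepsins tested in pre-existing protein had a median of -0.09 against 0.01 for all proteins, without any call. At an unadjusted p under 0.05, 8 of them were lower and 0 higher, where 153 were lower and 117 higher of all 3539 proteins. Man2b1, an alpha-mannosidase, stood at -0.09 ± 0.03, Ppt1, a palmitoyl thioesterase, at -0.13 ± 0.05, and Manba, a beta-mannosidase, at -0.17 ± 0.06 (limma adjusted p = 0.36, 0.48 and 0.49).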
